A study of Homo sapiens with 8 samples.

Results

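The genes described here are TXNIP, 4 other alpha-arrestins (ARRDC1, ARRDC2, ARRDC3 and ARRDC4), the glucose-sensing transcription factors MLXIP and MLX, and thioredoxin itself (TXN). They were chosen by symbol, and all 8 were found among the 58787 Ensembl genes of the deposited count table and passed the filter on low counts. The libraries come from IMR32, an established human neuroblastoma line with amplified MYCN, labelled wild type, from brain and of neuroblast type. One group of 4 libraries received CR31B at its IC50, a concentration the labels do not give as a number, and the other group of 4 received 0.1% DMSO. The extraction notes of all 8 libraries give a 6 h time point. CR31B is a rocaglate, one of a class of compounds that clamp the RNA helicase eIF4A onto messenger RNA and so block translation initiation. All libraries come from 1 cell line, and nothing in the labels says that the same-numbered libraries were grown together. The design calls them biological replicates.

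Alpha-arrestins are adaptor proteins that bring ubiquitin ligases of the NEDD4 family to membrane proteins, which are then taken up from the cell surface. TXNIP is the member that binds thioredoxin, and it also lowers glucose uptake by removing glucose transporters from the membrane. Its gene, like that of ARRDC4, is a textbook target of the MLXIP and MLX pair (MLXIP is also called MondoA), which moves into the nucleus when hexose phosphates build up in the cell and binds paired E-box-like sites called carbohydrate response elements.

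The promoters are shown first, because such an element is visible in the TXNIP sequence. They are RefSeq sequences on GRCh38.p14, which has the same chromosome coordinates as the GRCh38 build in the submitters' processing notes, given 5′ to 3′ on the strand of the gene. Each ends just before the more upstream of the RefSeq and GENCODE starts, and capitals mark the E-box-like site CACGNG on either strand. The TXNIP stretch is chr1:145996601-145996829 on the minus strand, that of ARRDC4 is chr15:97960453-97960697 on the plus strand, and that of ARRDC3 is chr5:91383360-91383567 on the minus strand.
TXNIP: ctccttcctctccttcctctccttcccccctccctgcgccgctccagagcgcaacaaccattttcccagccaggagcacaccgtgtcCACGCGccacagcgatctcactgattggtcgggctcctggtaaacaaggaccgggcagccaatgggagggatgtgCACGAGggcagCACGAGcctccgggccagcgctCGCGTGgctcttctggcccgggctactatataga
ARRDC4: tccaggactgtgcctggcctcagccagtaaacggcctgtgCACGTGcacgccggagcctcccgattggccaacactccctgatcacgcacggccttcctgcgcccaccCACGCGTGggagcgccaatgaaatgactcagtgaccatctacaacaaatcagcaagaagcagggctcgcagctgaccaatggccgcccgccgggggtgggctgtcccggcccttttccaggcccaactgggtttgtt
ARRDC3: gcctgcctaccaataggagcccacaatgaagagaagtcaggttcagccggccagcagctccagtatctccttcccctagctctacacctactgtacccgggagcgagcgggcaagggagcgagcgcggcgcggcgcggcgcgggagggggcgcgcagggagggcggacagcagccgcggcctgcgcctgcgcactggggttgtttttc

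In windows of 300 bases (250 before to 50 after the RefSeq start), TXNIP held 4 such sites. A pair of them, 88 to 72 bases before the start, stands 5 bases apart and reads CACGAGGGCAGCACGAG. That tandem form, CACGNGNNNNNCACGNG on either strand, was found in 20 of 35116 RefSeq windows (0.057%), and in no other member. The pattern has the form seen in TXNIP. Pairs with the second site in the other orientation or at another spacing were not searched, so the share applies to this form only. The palindromic E-box CACGTG, found in 7.26% of windows, was present once in ARRDC4, 210 to 205 bases before the start, and once in MLX, 50 to 45 bases before it. The site CACGNG alone, which includes the palindrome, was present in 30.5% of windows. ARRDC4 held 3 CACGNG sites in all, of which 2 overlap, ARRDC2 held 3 and TXN 1. No match was found in the windows used for ARRDC1, ARRDC3 and MLXIP. For each member 1 window was used, the one nearest the GENCODE start, though RefSeq has 2 for TXNIP, ARRDC2 and ARRDC3. These matches describe letters only, and binding was not measured. Of the 20 genes with the tandem form, 16 were tested in replicates 2 to 4, where 2 were called higher, TXNIP among them, and 4 lower. Over all tested genes 23.8% were called higher and 17.6% lower, by the test described below.

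**Figure D1:**
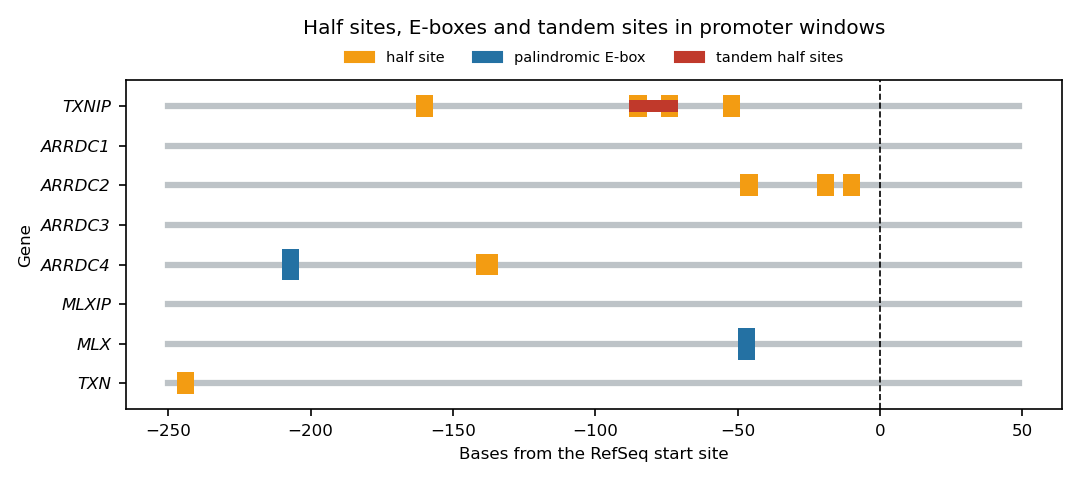
Matches in the promoter windows of the 8 genes, by distance in bases from the RefSeq start site (dashed line). Orange marks CACGNG, blue the palindromic E-box and red the tandem pair, which is seen in TXNIP, 88 to 72 bases before the start.

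Total counts ranged from 43687828 to 64715535 per library. Replicate 1 of each group is paired-end, the remaining 6 libraries are single-end, and replicate 1 stands apart. Of the 6901 genes called between treatments in replicates 2 to 4, 6822 (98.9%) had the opposite sign in replicate 1. With 1 library per group, the paired-end batch has no replicate check. The members are therefore given for replicates 2 to 4 (6 libraries), for replicate 1 apart, and for all 8 as labelled. Counts were scaled to library size with TMM factors (CPM), and edgeR's quasi-likelihood test gave log2 fold changes with standard errors (SE) and p-values adjusted by Benjamini-Hochberg over all tested genes. A gene was called when that adjusted p was under 0.05. In replicates 2 to 4 this held for 41.3% of 16696 tested genes, 23.8% higher and 17.6% lower with CR31B. As labelled, 0 of 16518 genes passed in all 8 libraries (edgeR, as did DESeq2 and limma voom), and 1.24% had an unadjusted p under 0.05.

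All 12 markers fixed for IMR32 were detected, with MYCN at 2304 to 2966 CPM and tyrosine hydroxylase (TH) lowest at 1.77 to 3.03 CPM. Their summed level was 6833 to 7481 CPM with CR31B and 5604 to 5908 CPM with DMSO in replicates 2 to 4, where 5 of the 12 were called higher and 4 lower. In replicate 1 this sum was 5900 CPM where the label is CR31B and 7361 CPM where it is DMSO, each within the range of the other group. Of 7 markers of other cell types, PTPRC, EPCAM, PECAM1, DCN and ALB stayed under 1 CPM, while COL1A1 and PMEL reached 30.7 and 34.6 CPM. In replicates 2 to 4 the summed level of these 7 was 39.4 to 52.3 CPM with CR31B and 49.6 to 59.4 CPM with DMSO. Replicate 1 had 43.9 CPM where the label is CR31B and 33.9 CPM where it is DMSO. The part of these markers in the results below was not tested.

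In replicates 2 to 4, 5 of the 8 genes were called, against 41.3% of all tested genes. The arrestins TXNIP, ARRDC3 and ARRDC4 were higher with CR31B, and MLXIP and TXN were lower. For ARRDC1, ARRDC2 and MLX no difference was detected. In these bulk libraries fewer cells of a kind and less RNA per cell cannot be told apart. The groups of 3 libraries did not overlap for the 5 called genes, as for 52.1% of all tested genes. In all 8 libraries as labelled, 0 of the 8 genes were called by edgeR, DESeq2 or limma voom, and 0 had an unadjusted p under 0.05 in edgeR.

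**Figure D2:**
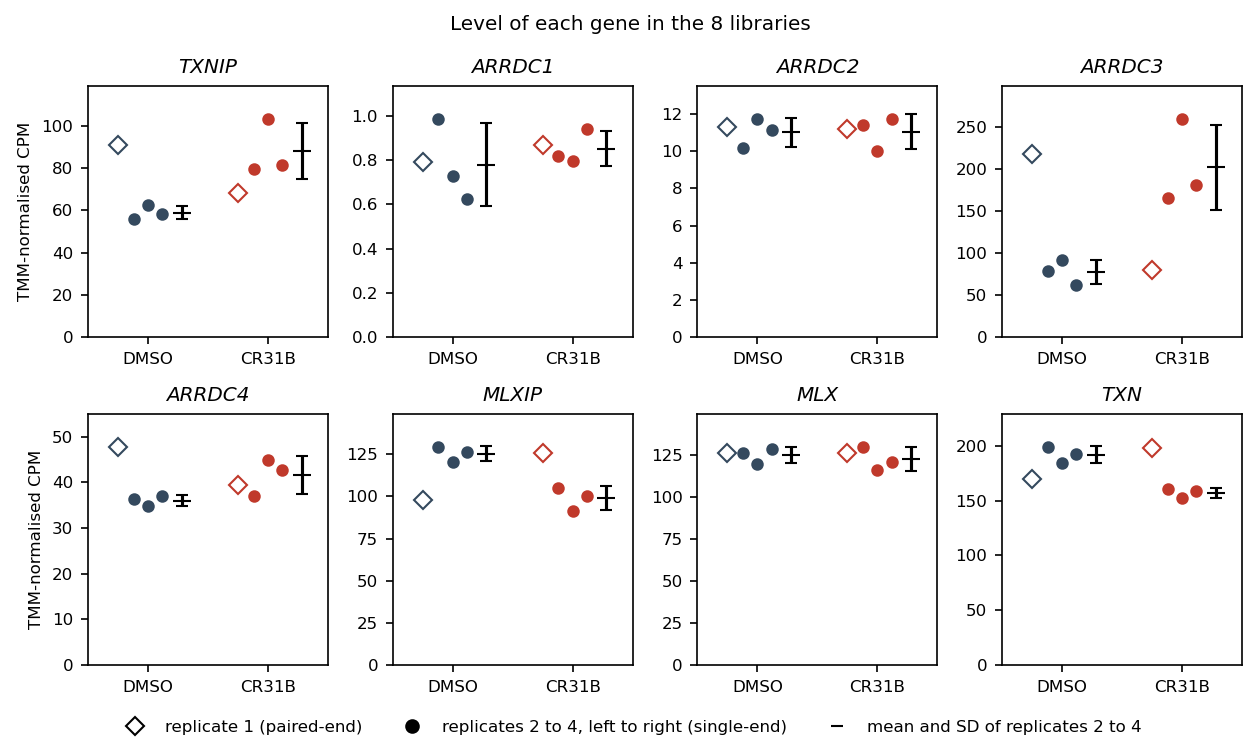
TMM-normalised CPM of each gene in the 8 libraries, with replicate 1 as open diamonds, replicates 2 to 4 as filled circles, and bars for the mean and SD of replicates 2 to 4 (n = 3). In TXNIP, ARRDC3 and ARRDC4 the filled circles are higher with CR31B and in MLXIP and TXN lower, while the open diamonds have the opposite order.

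ARRDC3 changed most. It encodes an alpha-arrestin that binds beta-adrenergic receptors and integrin beta 4 and brings NEDD4 ligases to them. Its gene (ENSG00000113369) lies on chromosome 5 from 91368724 to 91383359 on the minus strand. With CR31B its level was 165, 260 and 181 CPM in replicates 2, 3 and 4, and with DMSO 79.0, 91.2 and 62.0 CPM. Every CR31B library was above every DMSO library, and replicate 3 was the highest in each group. This was a 2.61-fold rise, 1.38 ± 0.17 (SE) on the log2 scale, at an adjusted p of 0.000116 (edgeR). Only 0.791% of the tested genes had a larger absolute change, and ARRDC3 was the one member past 2-fold, where 2.68% of all tested genes were called. Replicate 1 ran the other way, with 79.3 CPM where the label is CR31B and 217 CPM where it is DMSO (-1.46 on the log2 scale). Over all 8 libraries the estimate was 0.75 ± 0.48 with an adjusted p of 0.707 (edgeR).

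An antisense gene, ARRDC3-AS1, shares 2.94% of the exonic bases of ARRDC3, and the strand setting of the counting is not given in the sources used here. Its mean was 0.124 CPM with CR31B and 0.118 CPM with DMSO in replicates 2 to 4, far below ARRDC3.

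TXNIP (ENSG00000265972, chromosome 1, 145992435 to 145996600, minus strand) had 79.8, 103 and 81.3 CPM with CR31B in replicates 2, 3 and 4. With DMSO it had 56.1, 62.5 and 58.4 CPM. The lowest CR31B library was above the highest DMSO library. The means were 88.1 ± 13.2 CPM with CR31B and 59.0 ± 3.23 CPM with DMSO (SD, n = 3). TXNIP rose by 49.7%, or 0.58 ± 0.093 (SE) on the log2 scale, at an adjusted p of 0.000664 (edgeR). A larger absolute change was found in 14.3% of tested genes. The replicate 1 values of TXNIP were 68.4 CPM (labelled CR31B) and 90.9 CPM (labelled DMSO), -0.41 on the log2 scale. In all 8 libraries its log2 fold change was 0.34 ± 0.18 with an adjusted p of 0.707 (edgeR).

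ARRDC4 (ENSG00000140450, chromosome 15, 97960698 to 97973838, plus strand), a close paralog of TXNIP, rose less. It had 36.9, 44.9 and 42.8 CPM with CR31B and 36.4, 34.7 and 36.9 CPM with DMSO in replicates 2, 3 and 4. The CR31B library of replicate 2 lay within 0.1 CPM of the highest DMSO library, and the log2 differences of the pairs were 0.02, 0.37 and 0.21. Its rise of 15.6%, or 0.21 ± 0.074 (SE) on the log2 scale, had an adjusted p of 0.0454 (edgeR). This call was lost in 14 of 19 alternatives, in which adjusted p reached 0.319. They include RLE scaling (adjusted p of 0.0577), DESeq2 (0.0503), GC and length offsets (0.11 on the log2 scale, adjusted p of 0.265), upper quartile (0.11, 0.26) and total count scaling (0.13, 0.202), and leaving out any one library other than CR31B replicate 2. The 5 that kept the call include the replicate block, which pairs same-numbered libraries (0.21 on the log2 scale, adjusted p of 0.0224, edgeR). In replicate 1 ARRDC4 had 39.4 CPM in the library labelled CR31B and 47.8 CPM in that labelled DMSO, and in all 8 libraries its adjusted p was 0.76 (edgeR).

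ARRDC2 and ARRDC1 showed no detectable difference. ARRDC2 (ENSG00000105643, chromosome 19, 18001132 to 18014102, plus strand) had 11.4, 9.99 and 11.7 CPM with CR31B and 10.2, 11.7 and 11.1 CPM with DMSO in replicates 2 to 4. The groups overlapped fully, and the fit gave 0.0048 ± 0.094 (SE) on the log2 scale, at an adjusted p of 0.973 (edgeR). Replicate 1 of ARRDC2 had 11.2 CPM (labelled CR31B) and 11.3 CPM (labelled DMSO), and over all 8 libraries the estimate was -7.9e-05 ± 0.095. ARRDC1 (ENSG00000197070, chromosome 9, 137605654 to 137615360, plus strand), the arrestin that recruits TSG101 for the budding of vesicles at the plasma membrane, was counted 32 to 61 times per library, or 0.623 to 0.986 CPM. ARRDC1 differed by 0.12 ± 0.22 on the log2 scale (adjusted p of 0.703, edgeR), and at these counts the difference was not detectable. Replicate 1 of ARRDC1 had 0.868 CPM (labelled CR31B) and 0.79 CPM (labelled DMSO), and over all 8 libraries the estimate was 0.12 ± 0.19. The opposite-strand gene ARRDC1-AS1, which shares 0.76% of its exonic bases, was more abundant, at 18.6 CPM with CR31B and 20.3 CPM with DMSO.

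MLXIP and MLX act as a pair, but only MLXIP was called. MLXIP (ENSG00000175727, chromosome 12, 122078722 to 122147347, plus strand) carries the glucose-sensing part of the complex. It had 105, 91.1 and 100 CPM with CR31B and 130, 121 and 126 CPM with DMSO in replicates 2, 3 and 4. All 3 CR31B libraries were below all 3 DMSO libraries. MLXIP fell by 21.1%, or by 0.34 ± 0.061 (SE) on the log2 scale, at an adjusted p of 0.00125 (edgeR). In replicate 1 it had 126 CPM in the library labelled CR31B and 98.1 CPM in that labelled DMSO. In all 8 libraries its estimate was -0.17 ± 0.13 at an adjusted p of 0.707 (edgeR).

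MLX (ENSG00000108788, chromosome 17, 42567068 to 42573239, plus strand), the DNA-binding partner that MLXIP needs, had 130, 116 and 121 CPM with CR31B and 126, 120 and 129 CPM with DMSO. The groups overlapped, and the fit gave -0.03 ± 0.056 (SE) on the log2 scale, at an adjusted p of 0.739 (edgeR). Both replicate 1 libraries had 126.5 CPM, and over all 8 libraries the estimate was -0.02 ± 0.069. PSMC3IP, on the opposite strand, shares 18.1% of the exonic bases of MLX. It was called lower, from 126 to 98.6 CPM, so the MLX value is uncertain if the counting ignored strand. The name of the deposited table holds the word reverse, and nothing states what it refers to. The ratio of MLXIP to MLX per exonic length was 0.24 to 0.253 with CR31B and 0.299 to 0.314 with DMSO in replicates 2 to 4. These groups of 3 did not overlap, while replicate 1 had the reverse order, 0.304 where the label is CR31B and 0.237 where it is DMSO. Whether MLXIP and MLX changed by different amounts was not tested.

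TXN (ENSG00000136810, chromosome 9, 110243811 to 110256640, minus strand) encodes the small protein-disulfide reductase that TXNIP binds. It had 161, 152 and 159 CPM with CR31B and 200, 184 and 192 CPM with DMSO in replicates 2, 3 and 4. All 3 CR31B libraries were lower, and the 3 pairs differed by -0.31, -0.28 and -0.28 on the log2 scale. TXN fell by 18.0%, or by 0.29 ± 0.051 (SE) on the log2 scale, at an adjusted p of 0.00125 (edgeR). In replicate 1 TXN had 198 CPM in the library labelled CR31B and 170 CPM in that labelled DMSO, and in all 8 libraries the estimate was -0.16 ± 0.1 at an adjusted p of 0.707 (edgeR). With GC and length offsets the difference of TXN was smaller, -0.18 at an adjusted p of 0.0411 (edgeR). The 7 processed pseudogenes of TXN in the annotation held 2 to 8 counts in total per library, against 7079 to 12446 for TXN.

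With TXNIP higher and TXN lower, the ratio of TXNIP to TXN per exonic length was 0.156, 0.214 and 0.162 with CR31B in replicates 2, 3 and 4. With DMSO it was 0.0885, 0.107 and 0.0956. The library labelled CR31B replicate 1 had 0.109 and that labelled DMSO replicate 1 had 0.168. In every library TXN thus exceeded TXNIP in messenger RNA level per length.

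Levels of different genes were compared per kilobase of annotated exon (RPKM, with the union of all isoforms, which understates a gene that uses few of its exons). In DMSO replicates 2 to 4 TXN was highest at 168 ± 6.7 RPKM (SD, n = 3), followed by MLX at 29.4 ± 1.08. TXNIP at 16.3 ± 0.892 and ARRDC3 at 15.7 ± 2.98 did not differ beyond their spread, nor did MLXIP at 9.02 ± 0.328 and ARRDC4 at 8.84 ± 0.285. ARRDC2 had 2.37 ± 0.166 RPKM and ARRDC1 0.204 ± 0.049. With CR31B the order of the upper genes differed. ARRDC3 stood at 40.9 ± 10.2 RPKM, next after TXN at 138 ± 4.04 and above MLX at 28.8 ± 1.65, while TXNIP at 24.3 ± 3.65 RPKM had a lower mean than MLX, with libraries of both genes in an overlapping range. ARRDC4 at 10.2 ± 1.01 RPKM was above MLXIP at 7.11 ± 0.509.

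**Figure D3:**
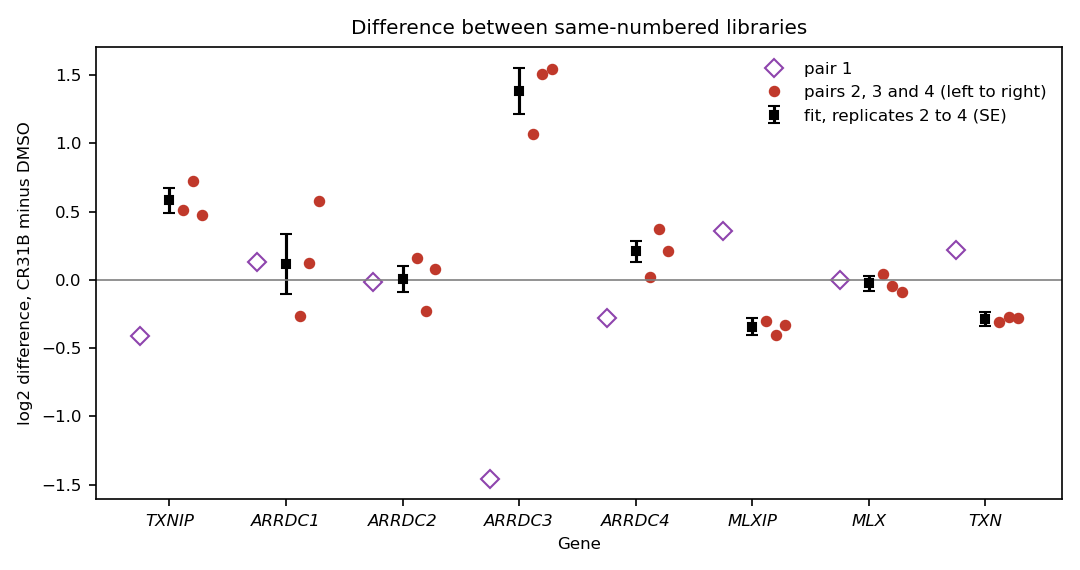
Log2 difference (CR31B minus DMSO, in CPM) between same-numbered libraries for each gene, with the fit of replicates 2 to 4 and its SE as black squares. Pairs 2 to 4 lie together above 0 for TXNIP and ARRDC3 and below 0 for MLXIP and TXN, and pair 1 (open diamonds) lies on the other side of 0 in each of these.

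Whether replicate 1 differed from the others was tested as an interaction of treatment with sequencing layout. It passed for the same 5 genes that were called in replicates 2 to 4, against 42.5% of all tested genes. The test subtracts that same contrast, and the 5 genes have the opposite sign in replicate 1, so this is no separate result. The interaction was -2.84 ± 0.35 (SE) for ARRDC3, -0.99 ± 0.19 for TXNIP and -0.49 ± 0.15 for ARRDC4, on the log2 scale. It was 0.70 ± 0.12 for MLXIP and 0.50 ± 0.10 for TXN, and adjusted p for the 5 ran from 0.000111 to 0.023 (edgeR). For ARRDC1, ARRDC2 and MLX the smallest adjusted p was 0.862 (edgeR). Only the single-end libraries inform the spread here, since each group has 1 paired-end library. In ARRDC3 and MLXIP each replicate 1 library lay within the range of the other group in replicates 2 to 4. In TXNIP only the library labelled DMSO did, in TXN only that labelled CR31B, and in ARRDC4 neither. What sets replicate 1 apart was not tested, and layout and replicate 1 cannot be told apart.

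**Figure D4:**
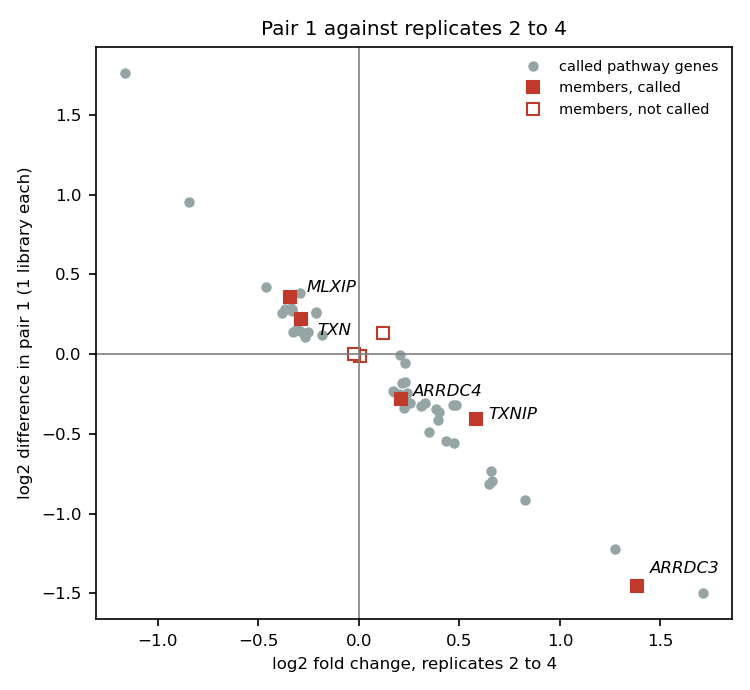
Log2 difference in pair 1 (1 library each) against the log2 fold change in replicates 2 to 4, for the 8 genes (red squares, filled where called) and the called pathway genes (grey). All filled squares and grey points lie in the quadrants of opposite sign, and ARRDC3 is at 1.38 and -1.46.

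Genes around the members were taken from 6 lists, each described by its counts beside 41.3% called and a median log2 fold change of -0.007 over all tested genes. In all 8 libraries as labelled, 0 genes of these lists were called (edgeR), and each gene called in replicates 2 to 4 had the opposite sign in replicate 1. The first list holds other partners in the MLX and MAX network. In replicates 2 to 4, 5 of 6 were called higher (median log2 fold change 0.37), among them MXD1 with 0.48 ± 0.091 (SE) and MGA with 0.47 ± 0.054, both of which bind DNA together with MAX. With GC and length offsets MXD1 had 0.32 and MGA 0.18, and both remained called. MLXIPL (ChREBP), the paralog of MLXIP that dominates in liver, was near 1 CPM, with 0.672 ± 0.033 CPM with CR31B and 0.891 ± 0.055 CPM with DMSO (SD, n = 3). MLXIPL differed by -0.41 ± 0.18 on the log2 scale at an adjusted p of 0.1 (edgeR), which upper quartile scaling brought to 0.048.

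Other glucose-responsive targets did not share one direction. Of 9 tested, 2 were called higher and 5 lower, with a median log2 fold change of -0.26. HK2, the hexokinase that makes glucose 6-phosphate, was called higher, at 329.6 ± 27.6 CPM with CR31B and 186 ± 16.7 CPM with DMSO (SD, n = 3). HK2 rose by 0.83 ± 0.078 on the log2 scale and KLF10, a repressor induced by glucose and TGF-beta, by 0.33 ± 0.091. FASN, the fatty acid synthase, fell by 0.38 ± 0.12 on the log2 scale and LDHA, a lactate dehydrogenase subunit, by 0.33 ± 0.087. Without CR31B replicate 3 FASN had -0.23. The FASN call was lost without DMSO replicate 4 (adjusted p of 0.102, edgeR), and that of KLF10 without CR31B replicate 4 (0.0501) and with upper quartile (0.0701) or total count scaling (0.0579).

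The thioredoxin and glutaredoxin system was mostly lower, like TXN. Of 18 tested genes 10 were called lower and 3 higher, with a median log2 fold change of -0.2. Upper quartile scaling gave 12 lower and 0 higher, and total count scaling 12 lower and 1 higher. All 6 peroxiredoxins, the peroxidases that thioredoxin recharges, were called lower, with PRDX1 at -0.46 ± 0.053 and PRDX3, the mitochondrial form, at -0.37 ± 0.061. With GC and length offsets 4 of the 6 were called, and the list had 7 called lower and 1 higher. TXNL1, a thioredoxin-like protein that was called higher (0.17, adjusted p of 0.0319, edgeR), had -0.05 with those offsets. TXNRD3 at 0.38 ± 0.12 and GLRX2 at 0.23 ± 0.057 were called higher, but GLRX2 had 0.03 with an adjusted p of 0.754 under those offsets and TXNRD3 lost its call in 8 of 19 alternatives (adjusted p up to 0.142, edgeR), among them leaving out CR31B replicate 3 or 4 or DMSO replicate 2 or 4. TXNRD1, the cytosolic reductase of thioredoxin, had 0.10 ± 0.05 with an adjusted p of 0.131 (edgeR).

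Ligases of the NEDD4 family and their adaptors NDFIP1 and NDFIP2 are what the arrestins recruit. In replicates 2 to 4, 8 of 11 were called higher and 0 lower, with a median log2 fold change of 0.24. NEDD4 had 0.66 ± 0.072 (SE), NEDD4L 0.47 ± 0.082 and ITCH, the ligase that marks TXNIP for degradation, 0.24 ± 0.064. This count rested on the processing. It was 3 with GC and length offsets, under which 2 of the 11 had a negative sign and ITCH had 0.03 with an adjusted p of 0.754 (edgeR). Without DMSO replicate 3 the adjusted p of ITCH was 0.0585 (edgeR). NEDD4 and NEDD4L remained called with the offsets, at 0.43 and 0.25. It was 4 with upper quartile scaling, and 5 without CR31B replicate 4, without DMSO replicate 2 or without DMSO replicate 3.

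Among the other arrestin-fold proteins 2 of 6 tested were called higher and 1 lower. VPS26A, a retromer subunit that sorts endosomal cargo, rose by 0.65 ± 0.044 (SE) on the log2 scale, and VPS26C of the related retriever complex by 0.22 ± 0.053, which lost its call with GC and length offsets (0.11, adjusted p of 0.181) and upper quartile scaling (0.12, 0.0647, edgeR). SAG, the arrestin of rod photoreceptors, was called lower by 1.16 on the log2 scale, at under 1 CPM. Its call was lost in 7 of 18 alternatives, among them DESeq2 (adjusted p of 0.0663) and leaving out any of DMSO replicate 2 or the 3 CR31B libraries in turn. The beta-arrestins ARRB1 and ARRB2 had -0.13 and -0.07 with adjusted p of 0.146 and 0.36 (edgeR). ARRB1 was called lower with the replicate block (adjusted p of 0.0381), total count scaling (0.0483) and upper quartile scaling (0.0308), and ARRB2 with upper quartile scaling (0.0468).

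Of 16 tested cargo proteins, hexose transporters and binding partners, 7 were called higher and 1 lower, with a median log2 fold change of 0.21. With GC and length offsets 4 were called higher and 1 lower. DDIT4 (REDD1), a stress-induced brake on mTORC1 that forms a complex with TXNIP, had 1.71 ± 0.13 (SE) and the insulin receptor substrate IRS1 1.28 ± 0.064. SLC2A4, the insulin-regulated glucose transporter, fell by 0.84 ± 0.13 on the log2 scale, at 2.15 CPM with CR31B and 3.84 CPM with DMSO. SLC2A1 (GLUT1), the basal glucose transporter and a TXNIP cargo, had 90.0 CPM with CR31B and 78.2 CPM with DMSO. SLC2A1 rose by 0.20 ± 0.067 on the log2 scale (adjusted p of 0.0324, edgeR), a call that was lost in 10 of 19 alternatives, where the adjusted p reached 0.183. These include upper quartile (0.18) and total count scaling (0.12), GC and length offsets (0.0738), and leaving out any one library other than CR31B replicate 3 and DMSO replicate 2. SLC2A1 had 0.11 with upper quartile and 0.12 with total count scaling.

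**Figure D5:**
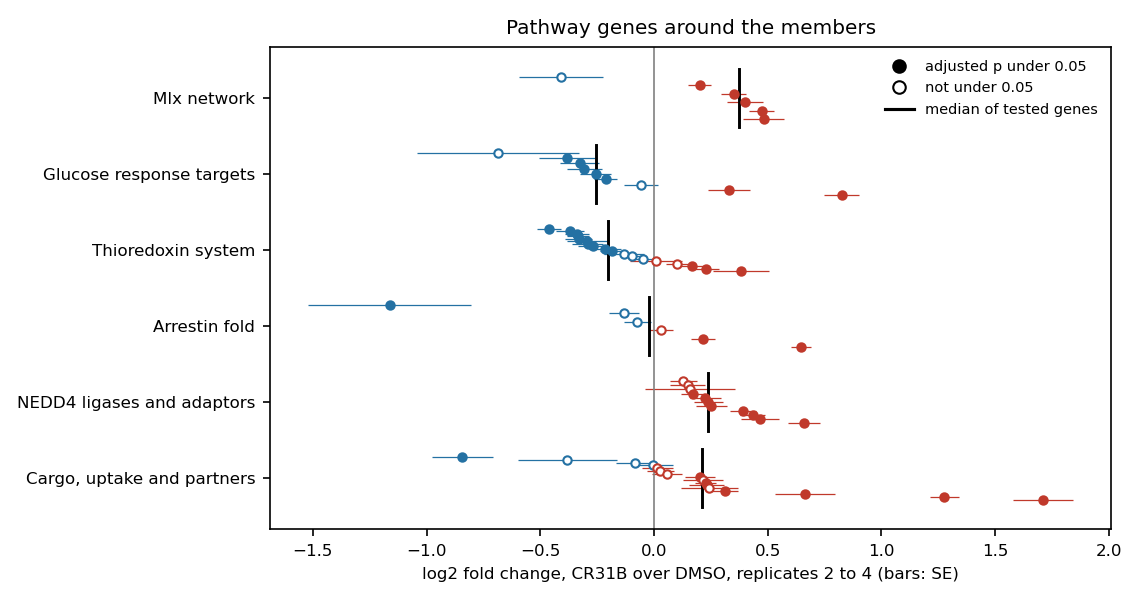
Log2 fold change (CR31B over DMSO, replicates 2 to 4, bars SE) of the tested genes of 6 lists, filled where the adjusted p is under 0.05, with the median of each list as a black line. The Mlx network and the NEDD4 ligases lie mostly to the right of 0 (medians 0.37 and 0.24) and the thioredoxin system mostly to the left (median -0.2).

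Genes whose pattern over the 8 libraries was most like that of a member were taken by Pearson r of log2 CPM among 10797 genes with a mean of at least 5 CPM. The 8 points share their libraries and fall into 2 sets, so r is a description. TXNIP was most like CPT2 (0.992), RIOX2 (0.992) and SLITRK5 (0.986). ARRDC3 was most like ZNF302 (0.997), ARMCX6 (0.996) and MTIF2 (0.996), and ARRDC4 was most like ATG7 (0.967), FANCG (0.965) and DGKE (0.96). The value of r does not measure the size of a change. In replicates 2 to 4 ZNF302 had 0.20 on the log2 scale, against 1.385 for ARRDC3. The matches of TXNIP and ARRDC3 were called higher there. ATG7, FANCG and DGKE were not called (adjusted p of 0.303, 0.192 and 0.0649, edgeR). No member was among these nearest genes. Between the members themselves r was 0.956 for TXNIP and ARRDC3, 0.831 for TXNIP and ARRDC4 and 0.776 for ARRDC3 and ARRDC4.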

How the data were processed

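Polyadenylated RNA, per the labels, was sequenced from 4 CR31B and 4 DMSO libraries of IMR32 (250 ng input, 15 PCR cycles, 75 sequencing cycles, TruSeq small RNA kit). The authors deposited 1 table of raw counts per Ensembl gene, without normalisation. The submitters' processing notes name FastQC 0.11.7, STAR 2.7.2b, edgeR 3.36.0, limma 3.50.3 and GRCh38. The counting tool, strand setting and annotation are not given in the sources used here, though the name of the table holds the word reverse. Columns were matched to samples by name, and 1 header lacks its first letter. Coordinates and exonic lengths come from GENCODE 29 (58515 of 58787 identifiers), and promoters, found for all 8 genes, from RefSeq (GRCh38.p14).

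Counts were tested with edgeR 4.0.16 (R 4.3.3, glmQLFit and glmQLFTest, two-sided, filterByExpr, TMM), in the 6 single-end libraries without covariates and in all 8 with layout as a covariate. Log2 CPM used a prior count of 1. As alternatives, scaling (RLE, upper quartile, total), the low-count filter and the tool (DESeq2 1.42.0; voom from limma 3.58.1) were changed in turn, and further ones were loess offsets on GC and transcript length (span 0.5, known for 99.9% of tested genes), a replicate block, and libraries or pairs left out. The scripts were tested on simulated data with the same dispersion for all genes. Those data held no layout effect and no reversal in replicate 1, so they did not test the fits for either. P-values measure the spread between these libraries, and intervals from depth would cover counting error only.

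The members, lists and tests were chosen with earlier results of these data known. The genes named are the 8 members, the 3 genes most like TXNIP, ARRDC3 and ARRDC4, up to 2 called genes per list and direction, and MLXIPL, ITCH, SLC2A1 and TXNRD1. Overlapping genes, TXNL1, ARRB1, ARRB2, NDFIP1 and PRKAA2, and the markers were named outside that rule. Same-numbered libraries of replicates 2, 3 and 4 deviated together from their group means (correlations of 0.21, 0.39 and 0.16), so the numbers were taken to pair them. The values given come from the fit without the block. For the called members the estimates and adjusted p with the block are in the closing section, and for other genes the calls it changes are given. The smallest chi-square statistic per gene between libraries was 7.28, where 2 draws from 1 library give about 1, so no library was counted as a duplicate.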

Additional observations from a re-analysis of the deposited data

Results flagged for a closer look

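The treatment difference in replicate 1 differed from that in replicates 2 to 4 by the interaction test for 5 members and for 18 of the 22 named pathway genes. It did so for 42.5% of all tested genes. Most of the pathway genes were named because they were called in replicates 2 to 4, so their count is no separate result. The values, as replicate 1 minus the others on the log2 scale, were -0.99 for TXNIP, -2.84 for ARRDC3, -0.49 for ARRDC4, 0.70 for MLXIP and 0.50 for TXN. For the MLX network they were -0.80 for MXD1, -1.03 for MGA and 1.06 for MLXIPL, and for the glucose targets -1.74 for HK2 and -0.63 for KLF10. Among redox genes they were -0.73 for TXNRD3, -0.505 for GLRX2, 0.88 for PRDX1 and 0.65 for PRDX3. Arrestin-fold genes had -1.46 for VPS26A, -0.40 for VPS26C and 3.03 for SAG, and ligases -1.39 for NEDD4, -0.78 for NEDD4L and -0.48 for ITCH. DDIT4 had -3.21, IRS1 -2.50 and SLC2A4 1.80.

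In 12 of 60 groups of 4 libraries (30 named genes in each treatment group) 1 library lay far from the other 3, with a gap to its neighbour over the group's range above Dixon's critical value for 4 samples. In all 12 that library was replicate 1. Chance gives about 1 in 20 for genes chosen without regard to their values, and these genes share their libraries. Most of them were named because they were called in the single-end libraries, and the called ones had the opposite sign in replicate 1. Such a choice favours a gap at replicate 1, so the chance rate does not apply here and the count is no separate result. In the DMSO group the ratio was 0.832 for ARRDC4, 0.9065 for MGA, 0.831 for HK2, 0.837 for PRDX1, 0.852 for PRDX3, 0.977 for VPS26A, 0.856 for NEDD4, 0.943 for DDIT4 and 0.961 for IRS1. In the CR31B group it was 0.983 for VPS26A, 0.979 for SAG and 0.882 for MLXIPL.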

How the results depend on the processing

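In replicates 2 to 4 the count of members called was 4 or 5 under each alternative, and ARRDC4 was the member lost. With the replicate block it stayed 5, and the block changed no call of a member. The log2 fold changes with the block were 0.575 for TXNIP, 1.375 for ARRDC3, 0.205 for ARRDC4, -0.344 for MLXIP and -0.286 for TXN. In the same order adjusted p with the block was 1.18e-05, 5.91e-07, 0.0224, 5.65e-05 and 0.000112 (edgeR), each lower than without it. Over all tested genes the block called 8540 (51.1%), against 6901 (41.3%). In the lists it added the calls of ARRB1, NDFIP1 and PRKAA2, and of the marker MYCN, and removed none. TXNIP, ARRDC3, MLXIP and TXN kept direction and call in all 19 alternatives, with ranges of 0.45 to 0.65, 1.16 to 1.53, -0.50 to -0.28 and -0.38 to -0.18 on the log2 scale. In all 8 libraries the count was 0 except where 1 library of replicate 1 was left out. It was 5 without CR31B replicate 1 and 5 without DMSO replicate 1. Layout is a term there, so the replicate 1 library that remains adds nothing to the treatment estimate. These fits therefore all but repeat that of replicates 2 to 4 (TXNIP at 0.582 and 0.583 against 0.582), and they say nothing about the remaining library. Upper quartile scaling moved the median of all tested genes to -0.10. Of all called genes, 57.5% were higher under TMM; upper quartile scaling gave 40%, total counts 43.1%, and the offsets for GC and length 48.5%.

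Among the members and named pathway genes of the rule, sign changes were found for ARRDC1, ARRDC2 and MLX, none of which was called under any alternative, and the cause was not tested. Among the other called list genes, TXNL1 changed sign, with GC and length offsets (-0.05213) and with these and the block (-0.05266). In replicates 2 to 4 ARRDC2 was at -0.007046 with RLE, -0.09235 with upper quartile and -0.07527 with total count scaling, -0.007392 with no filter, -0.03195 with at least 1 CPM in 3 libraries, -0.007418 with DESeq2, -0.002581 with voom, -0.004575 with GC and length offsets and -0.007639 with these and the replicate block. Over libraries or pairs left out, ARRDC2 ranged from -0.07325 to 0.1104, ARRDC1 from -0.0791 to 0.3476 and MLX from -0.0698 to 0.01164. In all 8 libraries these ranges were -0.03463 to 0.04733 for ARRDC2 and -0.05084 to 0.006256 for MLX.

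Without pair 4 the count called was 3 in the MLX network, 4 of the glucose targets, 7 in the thioredoxin system, 1 of the arrestin fold, 4 of the NEDD4 list and 5 of the cargo list. Without pair 2 it was 8 in the thioredoxin system and 5 in the NEDD4 list, and with the replicate block plus GC and length offsets 4 in the NEDD4 list.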
